A study of Homo sapiens with 8 samples.

Results

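The genes described here make, sense and move cholesterol. A list of 27 was looked up by symbol in the deposited expression table of 25369 genes, and all 27 were found: 18 enzymes of the mevalonate and sterol pathway, 5 genes that control it or carry sterols for that control, and 4 genes of uptake and efflux. The list does not hold every gene of the pathway, and others were not analysed here. The 8 RNA sequencing libraries came from EPC2-hTERT, human epithelial cells of the esophagus that telomerase has made immortal. The 4 shCtrl libraries came from a stable line with a lentiviral control short hairpin RNA, and the 4 HIF1A-KD libraries from a stable line with a lentiviral hairpin against HIF1A, which encodes the oxygen-regulated subunit of HIF-1. Both lines therefore carry telomerase, a lentiviral insert and a hairpin, and the labels do not say whether either is a single clone. Cells of both lines grew for 2 days to confluence on porous supports (0.4 µm), then for 5 days at 1.8 mM calcium chloride and for 4 days with their surface exposed to air, which lets them form layers. Dimethyloxalylglycine, a hydroxylase inhibitor, and its vehicle are also named in the protocol, but no library is tied to either. By its title, the series is about HIF-1α, metabolism and differentiation of the epithelium in eosinophilic esophagitis.

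Cells build cholesterol from acetyl-CoA through mevalonate and squalene to lanosterol, the first sterol, which a series of enzymes then trims and reduces. When sterols are low, SCAP escorts the membrane-bound factors SREBP-1 and SREBP-2 from the endoplasmic reticulum, and their cleaved forms switch on the genes of synthesis, while INSIG1 holds SCAP back when sterols are high. In stratified squamous epithelium, cholesterol and its sulfate are part of the lipid between the surface cells.

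As the check of the labels, HIF1A averaged 89.7 ± 29.2 in shCtrl against 36.6 ± 16.3 in HIF1A-KD (SD, 4 libraries each) in RPKM, the reads on a gene divided by its length and by the library's total. The groups overlapped, with a log2 change of −1.34 (adjusted p = 0.319 unpaired and 0.0253 paired, limma), and HIF1A-KD held less HIF1A than shCtrl at each of the 4 library numbers. The reads behind each library, implied by the deposited values, ran from 38068729 to 65326907. Markers of other cell types were mostly near 0. PTPRC, CD3E, TYR and MLANA were at 0 in all 8 libraries, and DCN, LUM, COL1A2, PECAM1, CDH5 and DCT averaged under 0.01 RPKM in both groups. Of the 7 fibroblast markers only COL1A1 could be tested (23.7 and 15.6 RPKM), and the list summed to 21.2 to 27.7 RPKM (shCtrl) and 14.1 to 19.2 RPKM (HIF1A-KD). CD68, VWF and PMEL were the testable leukocyte, endothelial and melanocyte markers, and CD68 averaged 71.2 and 51.0 RPKM. The basal keratins KRT5 and KRT14 were high in both groups (5261 and 4977 RPKM for KRT5, 4347 and 4762 RPKM for KRT14), which fits the label of an epithelial line.

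For most of the cholesterol pathway the estimated difference was small, and a pair of enzymes stood higher in the knockdown. TM7SF2, a sterol reductase, was 2.07 times its shCtrl mean in HIF1A-KD, and PMVK, a mevalonate pathway kinase, 1.72 times. They were the only 2 of the 27 genes whose groups did not overlap, both with HIF1A-KD higher, against 3.27% of all 11899 tested genes, and 0 had HIF1A-KD lower (2.13% of all). The 4 genes of uptake and efflux all had estimates below 0, with the cholesterol exporter ABCG1 lowest. The log2 change between groups, computed on log2(RPKM + 0.1), lay between −0.30 and 0.30 for 23 of the 27, and the median over the 27 was −0.02 (all tested genes, 0.06). Estimates were above 0 for 12 of the 27 (44.4%, against 58.7% of all tested genes). These are bulk cultures, so fewer cells of a type and less RNA per cell cannot be told apart.

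The test across all genes was limma on log2(RPKM + 0.1) with Benjamini-Hochberg adjustment over the 11899 genes. It was run without the library number (the unpaired fit) and with the number as a block (the paired fit). In the unpaired fit 0 of the 27 passed an adjusted p of 0.05, where 0.042% of all tested genes did. At an unadjusted p of 0.05 there were 2 of the 27, TM7SF2 and PMVK, where 7.80% of all tested genes passed. At the adjusted p, limma-voom on recovered reads also called 0. In the paired fit TM7SF2 alone passed (adjusted p = 0.0299), 1 of 27 where 1.83% of all tested genes were called and 0.74% were called higher. With 4 libraries a side, a gene that missed these tests is not shown to be unaltered. The intervals say how far each could have moved: in the paired fit the 95% interval lay within a 2-fold change either way for 23 of the 27, and in the unpaired fit for 17. The 4 whose paired interval reached past 2-fold were TM7SF2, PMVK, ABCG1 and ABCA1.

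**Figure D1:**
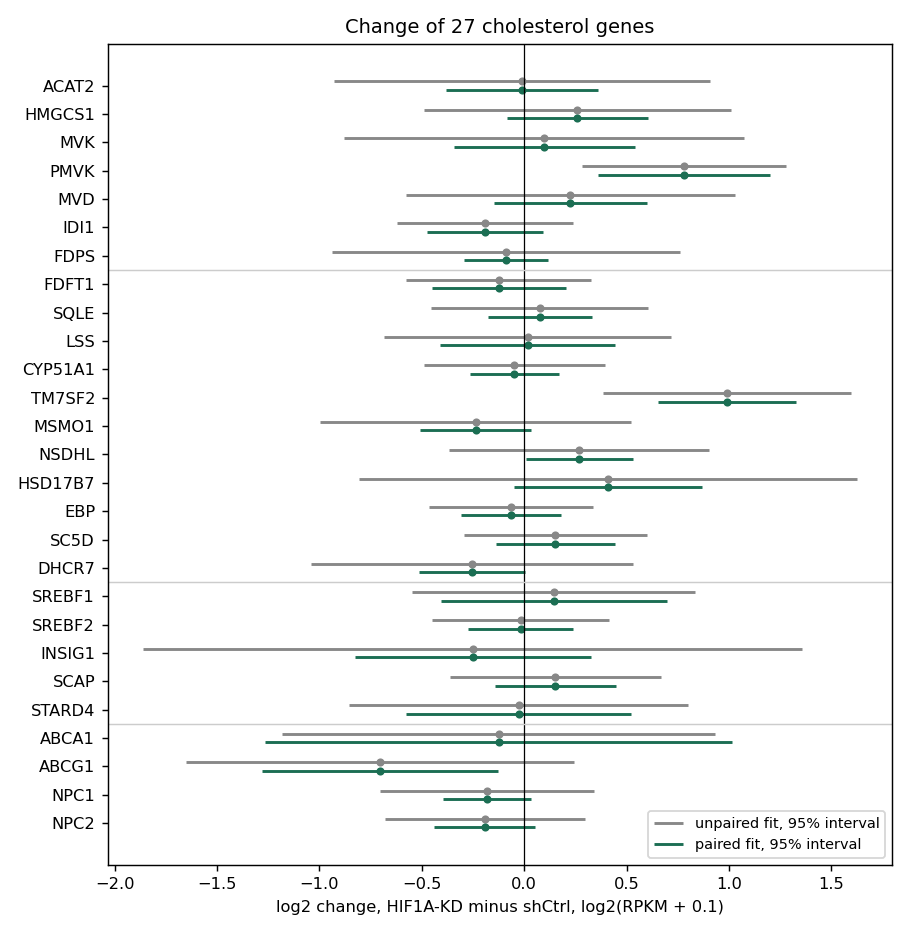
Log2 change of each gene between HIF1A-KD and shCtrl (horizontal axis, log2(RPKM + 0.1)) with its 95% interval in the unpaired fit (grey) and the paired fit (green), genes in pathway order and thin lines between the mevalonate, sterol, control and transport genes. TM7SF2 (0.99) and PMVK (0.78) lie farthest to the right and ABCG1 (−0.70) farthest to the left.

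Sterol regulatory factors act at promoters together with NF-Y, so the stretch before the start site was searched in RefSeq's promoter windows (GRCh38.p14, whereas the expression table is in hg19). Windows were found for 23 of the 27 genes, 29 windows in all, with none for ACAT2, FDFT1, SQLE and ABCG1. For a window of IDI1, of DHCR7 and of SC5D, the bases after the start were not found near the start of a known transcript of the gene. These windows were kept in the counts, and the HIF core matches of DHCR7 lie only in its window of this kind. The upstream 250 bases are printed for the 2 genes whose groups did not overlap and for SREBF2, the only member with a match to the sterol element. INSIG1 and MSMO1 are printed too, as genes that parted by library number (libraries 1 and 2 at 4.06 and 1.84 times 3 and 4). Other genes parted more than MSMO1. Capitals mark the NF-Y box (CCAAT on either strand) and, in SREBF2, also the sterol regulatory element core (TCACNCCAC on either strand). The windows are chr11:65111622-65111871 (plus strand) for TM7SF2, chr1:154936720-154936969 (minus strand) for PMVK, chr7:155297628-155297877 (plus strand) for INSIG1, chr4:165327419-165327668 (plus strand) for MSMO1 and chr22:41832855-41833104 (plus strand) for SREBF2.
TM7SF2: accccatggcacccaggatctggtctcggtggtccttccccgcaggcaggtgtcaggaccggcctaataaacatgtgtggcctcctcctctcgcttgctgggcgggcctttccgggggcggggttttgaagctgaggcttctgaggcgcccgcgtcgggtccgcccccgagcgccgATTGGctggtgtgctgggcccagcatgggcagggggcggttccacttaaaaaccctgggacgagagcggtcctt
PMVK: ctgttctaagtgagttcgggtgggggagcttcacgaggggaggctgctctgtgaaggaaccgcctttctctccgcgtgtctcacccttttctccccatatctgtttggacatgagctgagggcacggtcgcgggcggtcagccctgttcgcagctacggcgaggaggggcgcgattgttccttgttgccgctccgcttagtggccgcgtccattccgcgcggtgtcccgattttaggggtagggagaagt
INSIG1: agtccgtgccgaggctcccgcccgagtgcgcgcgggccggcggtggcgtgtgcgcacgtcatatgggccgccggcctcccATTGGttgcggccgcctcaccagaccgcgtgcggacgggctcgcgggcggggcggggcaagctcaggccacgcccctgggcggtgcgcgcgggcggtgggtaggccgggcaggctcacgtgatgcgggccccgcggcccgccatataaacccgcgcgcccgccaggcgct
MSMO1: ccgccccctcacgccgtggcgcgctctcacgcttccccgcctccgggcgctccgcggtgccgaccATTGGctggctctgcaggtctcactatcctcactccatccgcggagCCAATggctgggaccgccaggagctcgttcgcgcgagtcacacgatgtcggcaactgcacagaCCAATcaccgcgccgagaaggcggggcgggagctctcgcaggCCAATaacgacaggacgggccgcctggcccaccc
SREBF2: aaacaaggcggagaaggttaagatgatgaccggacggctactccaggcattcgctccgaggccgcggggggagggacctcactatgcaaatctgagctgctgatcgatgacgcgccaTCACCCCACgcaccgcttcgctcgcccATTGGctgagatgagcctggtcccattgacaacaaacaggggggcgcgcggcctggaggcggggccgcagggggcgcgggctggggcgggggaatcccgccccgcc

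An NF-Y box stood in 19 of the 29 windows (65.5%), against 32.0% of the 35116 windows of all genes. TM7SF2 holds 1 and MSMO1 holds 4, while PMVK holds none in these bases. The sterol element core was in 1 window of 29 (3.45%), that of SREBF2, against 0.883% of all windows. The E-box CACGTG, which SREBP can also bind, was in 5 of 29 windows (17.2%, all windows 6.34%), which belong to SC5D, INSIG1, SCAP and ABCA1. The core of the HIF site, ACGTG, was in 7 of 29 (24.1%, all windows 18.5%), and it lies within the E-box wherever that occurs. It had 3 matches in INSIG1, of which 2 are the opposite strands of 1 E-box, and none in TM7SF2 or PMVK. A match is a description of letters and not a bound site, and a missing match says only that these letters are not in the window.

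The 7 genes of the early pathway, from acetyl-CoA to farnesyl diphosphate, varied widely between libraries, and only PMVK had groups that did not overlap. PMVK phosphorylates phosphomevalonate (chromosome 1, 154897208 to 154909484, minus strand, hg19). In shCtrl 1 to 4 it held 22.0, 25.1, 15.2 and 24.7 RPKM, and in HIF1A-KD 1 to 4 it held 45.0, 40.9, 35.2 and 28.1 RPKM. Every HIF1A-KD library was above every shCtrl library, with the narrowest step in the libraries numbered 4. The means were 21.7 ± 4.58 and 37.3 ± 7.33 RPKM (SD, n = 4 each), a log2 change of 0.78 (SE 0.22 unpaired, 0.17 paired). PMVK passed neither fit (adjusted p = 0.329 unpaired and 0.0842 paired, limma). A two-sided exact permutation test of 4 against 4 gave p = 0.0286, the smallest such a test can give. Any gene whose groups do not overlap gets this value, so it restates the separation and adds nothing to it. Without the libraries numbered 4 the paired fit called PMVK (adjusted p = 0.0341, limma), and the share of all tested genes called in that setting was not computed.

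The enzymes on either side of PMVK did not share its separation. MVK, the kinase just before it, averaged 21.2 ± 6.78 and 25.2 ± 14.8 RPKM (SD; shCtrl, then HIF1A-KD), and MVD, the decarboxylase just after it, held 20.3 ± 9.05 and 23.8 ± 9.93 RPKM. Their log2 changes were 0.10 and 0.23, with paired 95% intervals of −0.34 to 0.54 and −0.15 to 0.60. ACAT2, which joins acetyl-CoA units, had a log2 change of −0.01, and HMGCS1, which adds the third, 0.26. HMGCS1 stood at 68.5 RPKM in HIF1A-KD 2, where the other HIF1A-KD libraries held 41.4 to 41.5 RPKM. Its highest shCtrl value was also in number 2, at 76.1 RPKM, where shCtrl 1, 3 and 4 held 29.1, 38.7 and 27.6 RPKM. IDI1, the isopentenyl diphosphate isomerase, averaged 86.7 and 76.4 RPKM (log2 change −0.19), and FDPS, which makes farnesyl diphosphate, 90.5 and 83.4 RPKM (−0.09). FDPS ran from 54.7 to 148 RPKM over the shCtrl libraries and from 56.4 to 130.3 RPKM over the HIF1A-KD ones, so its groups covered nearly the same range. The median log2 change of these 7 genes was 0.10.

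**Figure D2:**
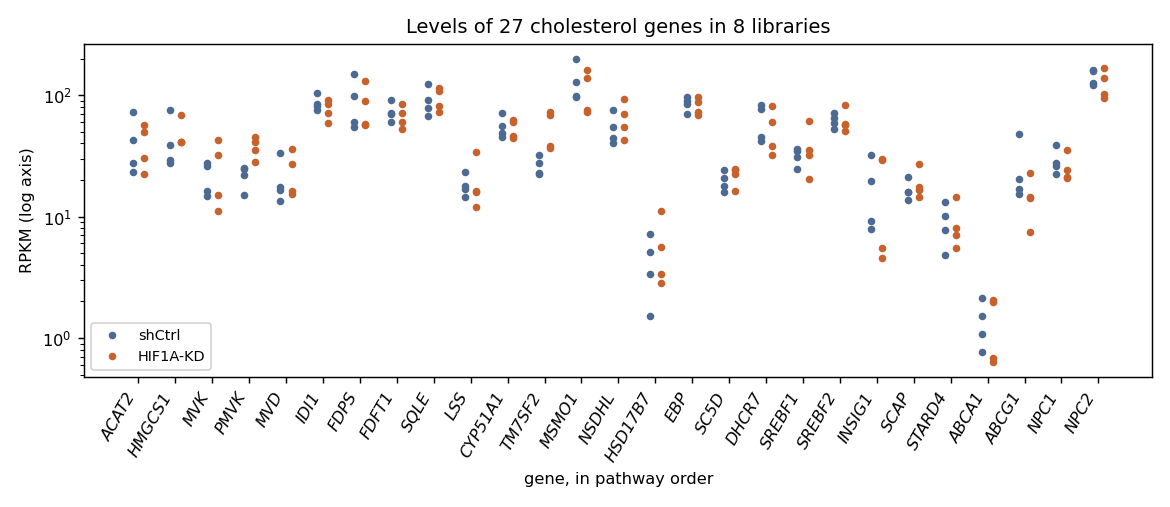
RPKM of each of the 27 genes (vertical axis, log scale) in the 4 shCtrl (blue) and 4 HIF1A-KD (orange) libraries, genes in pathway order. MSMO1 and NPC2 are among the highest, ABCA1 is the lowest at 0.633 to 2.12 RPKM, and the blue and orange points are apart only for PMVK and TM7SF2.

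Among the 11 enzymes from squalene to cholesterol, TM7SF2 rose in the paired fit and 10 did not pass. TM7SF2 encodes a reductase of the sterol C14 double bond, a step that LBR can also carry out (chromosome 11, 64879326 to 64883707, plus strand, hg19). In shCtrl 1 to 4 it held 31.9, 27.4, 22.8 and 22.2 RPKM, and in HIF1A-KD 1 to 4 it held 68.3, 73.2, 36.7 and 38.0 RPKM. All HIF1A-KD libraries lay above all shCtrl libraries, and those numbered 1 and 2 were the highest. The means were 26.1 ± 4.51 and 54.0 ± 19.4 RPKM (SD, n = 4 each), with a log2 change of 0.99 (SE 0.27 unpaired, 0.14 paired). The adjusted p was 0.310 in the unpaired limma fit. The exact permutation test gave p = 0.0286, again its smallest value and again fixed by the groups not overlapping. Within libraries 1 and 2 the log2 change was 1.25, and within 3 and 4 it was 0.73. The paired call was lost without the libraries numbered 1 (adjusted p = 0.152) or 2 (0.177), with no filter on low genes (0.116) and without trend and robust moderation (0.0803).

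LBR, whose protein shares that step, averaged 9.78 ± 1.02 and 10.1 ± 2.67 RPKM (SD; shCtrl, then HIF1A-KD), a log2 change of 0.01. The deposited coordinates of TM7SF2 overlap those of VPS51 on the same strand, and VPS51 had a log2 change of −0.09 at a mean of 19.8 RPKM. Most markers of suprabasal keratinocytes stood higher in HIF1A-KD alongside TM7SF2 and PMVK. All 8 had estimates above 0 (58.7% of all tested genes), and none passed the unpaired fit. KRT10 alone passed the paired fit (adjusted p = 0.0432, limma), where 0.74% of all tested genes were called higher. KRT4, KRT10 and SPRR3 had groups apart (3.27% of all tested genes, HIF1A-KD higher), while KRT1, KRT13, IVL, DSG1 and DSC2 overlapped. IVL and DSC2 had log2 changes of 0.31 and 0.08. The list summed to 1860.2 to 6191 RPKM (shCtrl) and 9182 to 10976.5 RPKM (HIF1A-KD). SPRR3 alone held 820 to 3676 and 4698 to 6660 RPKM. No marker of this list averaged 0. Of the basal list, 2 of 7 had estimates above 0 and 5 below, and the list summed to 8367 to 12336 RPKM (shCtrl) and 9827 to 12108 RPKM (HIF1A-KD). KRT15, a basal keratin, averaged 208 and 479 RPKM, was higher in 4 of 4 pairs and did not pass (paired adjusted p = 0.127, limma). The 3 testable proliferation markers of 7 had estimates below 0 (median −0.69), none passed, and MCM2 and CCNB1 were lower in 4 of 4 pairs. The proliferation list summed to 34.9 to 47.0 RPKM (shCtrl) and 28.5 to 46.0 RPKM (HIF1A-KD). The part of these markers in the 2 enzymes' values was not tested.

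The other sterol enzymes showed small differences in both directions. CYP51A1, the demethylase that acts just before TM7SF2, averaged 55.2 ± 11.3 and 53.2 ± 9.01 RPKM (SD, n = 4 each), and MSMO1, the oxidase that acts just after, 129.9 ± 47.6 and 112 ± 45.3 RPKM. Their log2 changes were −0.05 and −0.24, so the steps beside TM7SF2 did not stand higher. FDFT1, the squalene synthase, had a log2 change of −0.12, SQLE, the squalene epoxidase, 0.08, and LSS, which folds the epoxide into lanosterol, 0.02. The paired 95% interval of SQLE ran from −0.18 to 0.33. NSDHL, a demethylating dehydrogenase, had a log2 change of 0.27, higher in 3 of 4 pairs, and did not pass (adjusted p = 0.943 unpaired and 0.243 paired, limma). EBP, an isomerase, and SC5D, a desaturase, had log2 changes of −0.06 and 0.15.

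HSD17B7 and DHCR7 were the remaining enzymes with the same direction in every pair. HSD17B7, a sterol ketone reductase, held 7.15, 5.09, 1.51 and 3.35 RPKM in shCtrl 1 to 4 and 11.1, 5.64, 2.82 and 3.35 RPKM in HIF1A-KD 1 to 4. The groups overlapped in part, at 1.51 to 7.15 RPKM (shCtrl) and 2.82 to 11.1 RPKM (HIF1A-KD), and number 4 was all but equal. Its log2 change was 0.41 (SE 0.54 unpaired, 0.19 paired; adjusted p = 0.966 and 0.297, limma). The deposited table also lists a pseudogene named for HSD17B7, and how reads shared between them were counted was not given in the sources used here. DHCR7 makes the last reduction to cholesterol (chromosome 11, 71145457 to 71159477, minus strand, hg19). It held 82.9, 77.5, 42.1 and 44.9 RPKM in shCtrl 1 to 4 and 82.1, 60.4, 37.8 and 32.0 RPKM in HIF1A-KD 1 to 4. The spread between numbers was far wider than the step within a pair. Its log2 change was −0.25 (SE 0.35 unpaired, 0.11 paired; adjusted p = 0.973 and 0.259, limma). In all, 3 of the 27 genes (PMVK, TM7SF2 and HSD17B7) were higher in 4 of 4 pairs, where 18.6% of all tested genes were. Another 3 (DHCR7, ABCG1 and NPC1) were lower in 4 of 4, where 10.7% were.

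**Figure D3:**
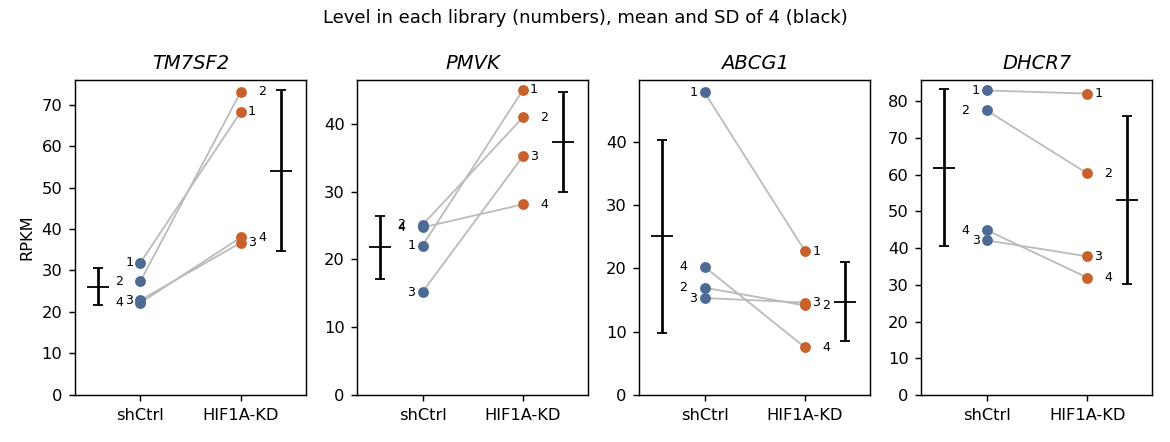
RPKM of TM7SF2, PMVK, ABCG1 and DHCR7 in each library (points, with the library number), with grey lines joining libraries of the same number and the mean ± SD of 4 libraries in black. TM7SF2 and PMVK have all HIF1A-KD points above all shCtrl points, ABCG1 has shCtrl 1 alone at 47.8 RPKM, and DHCR7 is split by number rather than by hairpin.

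None of the 5 control genes passed either fit, and INSIG1 varied most. SREBF2, which encodes SREBP-2, the main activator of sterol synthesis, averaged 61.7 ± 7.75 and 61.7 ± 14.0 RPKM (SD; shCtrl, then HIF1A-KD), with a paired 95% interval of −0.27 to 0.24. SREBF1, which encodes the SREBP-1 factors, averaged 31.5 ± 4.96 and 37.2 ± 17.0 RPKM, where HIF1A-KD 1 held 60.7 RPKM and HIF1A-KD 4 held 20.2 RPKM. SCAP, the escort, had a log2 change of 0.15, and STARD4, a cytosolic sterol carrier that is itself a sterol-responsive gene, −0.03. INSIG1 (chromosome 7, 155089486 to 155101945, plus strand, hg19) held 19.6, 31.8, 9.16 and 7.86 RPKM in shCtrl 1 to 4 and 29.8, 29.0, 5.55 and 4.60 RPKM in HIF1A-KD 1 to 4. Numbers 1 and 2 were high and 3 and 4 low in both groups. The group means were 17.1 ± 11.1 and 17.2 ± 14.1 RPKM, while the log2 change was −0.25 (SE 0.71 unpaired, 0.24 paired), so the difference of means and the log2 change have opposite signs. INSIG1 was higher in HIF1A-KD among libraries 1 and 2 (log2 change 0.24) and lower among 3 and 4 (−0.74), and the difference between these was not tested.

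ABCG1 had the lowest estimate of the 4 transport genes, and the estimate leaned on shCtrl 1 and HIF1A-KD 4. ABCG1 exports cholesterol to lipoprotein particles and is switched on by liver X receptors (chromosome 21, 43619799 to 43717354, plus strand, hg19). It held 47.8, 16.9, 15.3 and 20.2 RPKM in shCtrl 1 to 4 and 22.7, 14.1, 14.6 and 7.50 RPKM in HIF1A-KD 1 to 4. It was lower in HIF1A-KD in 4 of 4 pairs, the groups overlapped, and the steps were wide in numbers 1 and 4 and narrow in 2 and 3. The means were 25.1 ± 15.3 and 14.7 ± 6.23 RPKM (SD, n = 4 each), with a log2 change of −0.70 (SE 0.42 unpaired, 0.24 paired). It passed neither fit (adjusted p = 0.789 unpaired and 0.182 paired, limma), and the exact permutation test gave p = 0.229. Without shCtrl 1 the shCtrl mean was 17.5 ± 2.51 RPKM (SD, n = 3), and the unpaired log2 change was −0.34. Without HIF1A-KD 4 the HIF1A-KD mean was 17.1 RPKM.

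The other transport genes differed less. ABCA1, the exporter that loads apolipoprotein and a further liver X receptor target, was the lowest of the 27, at 1.37 ± 0.583 and 1.34 ± 0.791 RPKM (SD, n = 4 each), and its paired 95% interval of −1.27 to 1.02 was the widest. NPC1 and NPC2, which pass cholesterol out of the lysosome, had log2 changes of −0.18 and −0.19. NPC1 was lower in 4 of 4 pairs and NPC2 in 3 of 4, with paired adjusted p of 0.324 and 0.358 (limma).

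The library number divided these genes more than the hairpin did. For 12 of the 27 (44.4%) all 4 libraries numbered 1 and 2 lay above all 4 numbered 3 and 4, where 14.6% of all tested genes did so, and for 0 of the 27 the reverse held (13.3% of all). The 12 were ACAT2, MVK, IDI1, FDPS, SQLE, CYP51A1, MSMO1, HSD17B7, EBP, DHCR7, INSIG1 and NPC2. The ratio of the mean of libraries 1 and 2 to that of 3 and 4 ran from 1.25 for EBP to 4.06 for INSIG1 among them. The absolute log2 difference between numbers 1 and 2 and numbers 3 and 4 exceeded that between the hairpins for 24 of the 27, against 67.5% of all tested genes. The labels give the numbers without saying what they stand for, and the split was seen in these data, so it carries no test here.

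The 18 synthesis genes summed to 1021 to 1237 RPKM in libraries 1 and 2 and to 731 to 767 RPKM in libraries 3 and 4. Their median log2 deviation from each gene's own mean was 0.06 in shCtrl 1, 0.39 in shCtrl 2, 0.35 in HIF1A-KD 1 and 0.37 in HIF1A-KD 2. It was −0.34 in shCtrl 3, −0.26 in shCtrl 4, −0.33 in HIF1A-KD 3 and −0.28 in HIF1A-KD 4. SC5D was an exception, with a mean in libraries 1 and 2 that was 0.815 times that in 3 and 4, and ABCA1 (0.946 times) was the only other below 1. MSMO1 showed the common form, with 128, 198, 97.9 and 95.6 RPKM in shCtrl 1 to 4 and 139, 162, 72.6 and 75.2 RPKM in HIF1A-KD 1 to 4. Each value of libraries 1 and 2 was above each value of 3 and 4. An NF-Y box was in the upstream window of 9 of the 10 genes of the 12 that have a window (not CYP51A1), and of 8 of the 13 others. A gene counted if any of its windows held a box, some genes have more than 1 window, and 32.0% of all windows held one. These genes were divided by the same data, and the difference in boxes was not tested. The testable markers were 7 basal, 8 suprabasal, 3 proliferation, and 1 each for fibroblast, leukocyte, endothelial and melanocyte. Of these, 5 parted by number, where 14.6% of all tested genes had libraries 1 and 2 above 3 and 4, and 13.3% the reverse. TP63, a basal factor, ran from 19.4 to 37.1 RPKM in libraries 1 and 2 and from 58.3 to 76.8 RPKM in 3 and 4, and DSC2, of the suprabasal list, from 119 to 154 and from 163 to 214 RPKM. MCM2, VWF and PMEL parted the other way, with VWF at 1.76 to 15.3 and 0.652 to 1.47 RPKM. The summed suprabasal list overlapped, at 1860.2 to 10764.4 RPKM in libraries 1 and 2 and 4774 to 10976.5 RPKM in 3 and 4, and so did the summed basal list, at 8367 to 12336 and 9827 to 12108 RPKM. The number of genes above 0 moved with the split as well, from 16381 to 17005 in libraries 1 and 2 and from 13646 to 15171 in libraries 3 and 4. The part of these in the split was not tested.

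**Figure D4:**
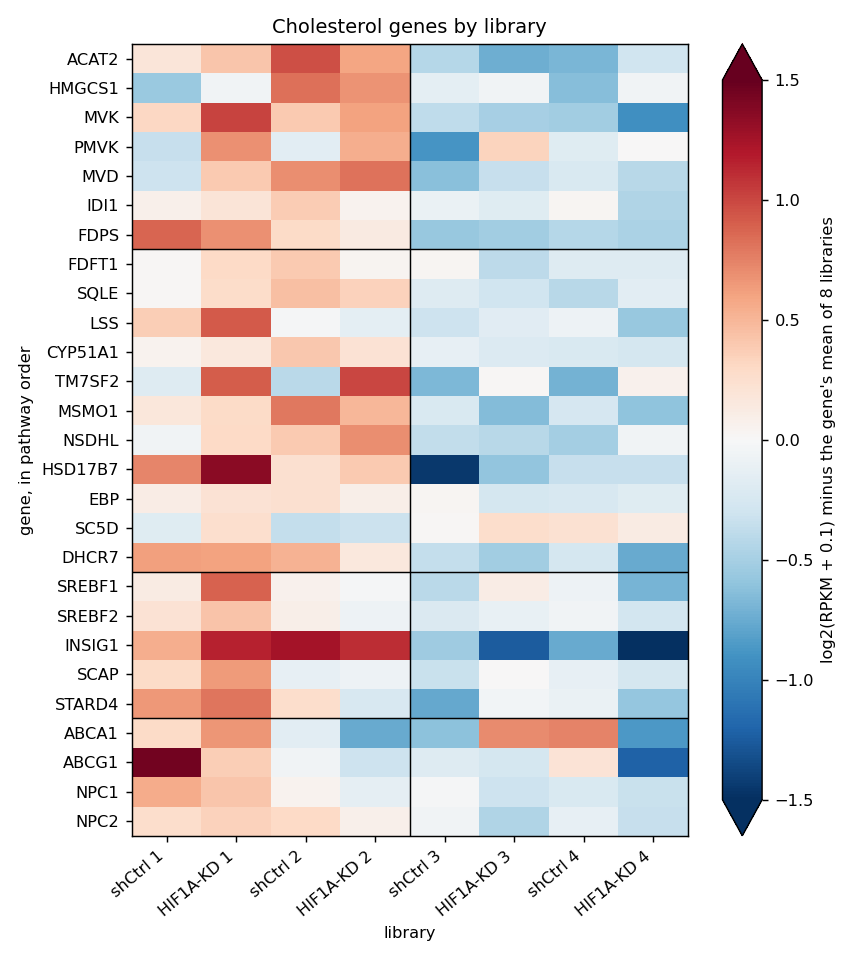
Heat map of the 27 genes (rows, in pathway order) by library (columns, with the 2 libraries of a number side by side), coloured by log2(RPKM + 0.1) minus the gene's own mean over 8 libraries. The 4 columns of numbers 1 and 2 are mostly red and those of 3 and 4 mostly blue, with INSIG1 the most pronounced, and TM7SF2 is higher in the HIF1A-KD column of each number.

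Within the pairs, the synthesis genes did not move one way. In number 1, 16 of 18 were higher in HIF1A-KD (median log2 difference 0.32, all tested genes 0.12). In numbers 2, 3 and 4 the counts were 7, 8 and 8 and the medians −0.14, −0.06 and −0.02. Of all tested genes, 63.5%, 50.8%, 61.5% and 47.2% were higher in numbers 1 to 4. The medians of all tested genes in numbers 2, 3 and 4 were 0.0058, 0.15 and −0.03. In number 3, then, the median of the synthesis genes lay below 0 where that of all genes lay above it. A fit with the split of numbers 1 and 2 from 3 and 4 as a term called TM7SF2 (adjusted p = 0.0236, limma) and none of the other 26, where 0.857% of all tested genes were called and 0.345% were called higher. With HIF1A-KD 3 and 4 exchanged, since the pairing of those numbers is uncertain, the fit called 3 of the 27, TM7SF2 and PMVK higher and ABCG1 lower, where 11.2% of all tested genes were called.

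The authors' deposited table, made from the same libraries and so no independent support, lists all 27 genes. At its adjusted p of 0.05 it holds 2 higher, TM7SF2 and PMVK (3.94% of its 13627 genes are higher), and 2 lower, ABCG1 and DHCR7 (5.08% are lower). The authors' deposited table gives moderated folds of 1.80 for TM7SF2 (adjusted p = 2.14e-05), 1.57 for PMVK (0.00307), 0.627 for ABCG1 (0.0175) and 0.804 for DHCR7 (0.0455). The authors' deposited table is not a like measure to the fits here, which did not call PMVK, ABCG1 or DHCR7 with the libraries paired as numbered.

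Related genes outside the 27 were read from 5 lists, and 0 of their 40 tested members passed either fit. INSIG2, the partner gene of INSIG1, was lower in HIF1A-KD in 4 of 4 pairs, at 8.16 ± 2.94 and 5.73 ± 2.15 RPKM (SD, 4 libraries each). It had an adjusted p of 0.832 unpaired and 0.121 paired in limma. Of the 9 other genes of SREBP control, MBTPS2, a protease that cleaves SREBP, had the next smallest unadjusted p and a log2 change of 0.14. Of 9 SREBP targets in fatty acid synthesis, 7 had estimates below 0 with a median of −0.27 (all tested genes, 0.06, with 58.7% above 0). SCD, the main desaturase, averaged 392 ± 48.7 and 289.8 ± 41.1 RPKM (SD; log2 change −0.44). Its groups did not overlap (2.13% of all tested genes with HIF1A-KD lower). FADS1, a desaturase of longer fatty acids, had a log2 change of −0.46. In the unpaired fit their adjusted p were 0.536 and 0.649, and in the paired fit 0.157 and 0.243. The liver X receptor genes NR1H2 and NR1H3 had log2 changes of 0.31 and 0.06, and among 5 genes of that list ABCA7, an ABC transporter, had 0.44. In the list of 12 genes of lysosomal handling, esterification and transfer, GRAMD1A, a sterol transfer protein (−0.66, paired adjusted p = 0.127), and SCARB1, a lipoprotein receptor (−0.57, 0.199), were lowest. SULT2B1, which sulfates cholesterol in stratified epithelium, averaged 291 ± 89.4 and 234 ± 90.5 RPKM (SD), with a log2 change of −0.34, and STS, which removes the sulfate, had −0.29. CH25H, CYP27A1 and CYP7B1, enzymes that hydroxylate sterols, were too low to test.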

How the data were processed

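The 4 shCtrl and 4 HIF1A-KD RNA sequencing libraries were grouped by their titles. Per the submitters' processing notes the tools included HTSeq 0.6.1, Picard 1.129, SAMtools 1.3.1, Bowtie2 2.2.3.0, TopHat2 2.0.13, FastQC 0.11.5 and bcl2fastq, and both GRCh37/hg19 and GRCh38/hg38 are named. The table's gene coordinates are those of hg19, and the strand setting was not given in the sources used here. What the authors deposited per library, in a table named for raw counts, are RPKM values. Multiplied by gene length they are whole multiples of 1 step per library within 0.01 read for 100% of genes with a readable length, which gives the reads used in limma-voom. The authors' second deposited table holds p-values, a moderated fold as a ratio and on the log2 scale, and for each group a mean signal of normalised reads. Its tool was not given in the sources used here, and it was read as deposited.

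A gene was tested if 4 or more libraries had 0.5 RPKM or more (11899 genes, all 27 of the list among them) with limma 3.58.1 in R 4.3.3 on log2(RPKM + 0.1), two-sided, with trend and robust moderation. Exact permutation tests used SciPy 1.17.1. The fits were also run on simulated data with planted changes larger than any of the 27 genes. That run says nothing of power or error at changes of their size. Same-numbered libraries shared deviations from their group means (correlations across genes of 0.754, 0.730, 0.252 and 0.257), so the number was taken as a pairing on the strength of the data, as no label states it. For numbers 3 and 4 it is uncertain, since the crossed couples, shCtrl 3 and HIF1A-KD 4 (0.463) or shCtrl 4 and HIF1A-KD 3 (0.613), correlated more. The labels do not say whether libraries came from separate cultures, so p-values measure the spread between these libraries. The 27 genes and all other lists were chosen with earlier results of these data known. All 27 are named. Values per library are given for genes called in a fit or in the authors' table and for the 3 largest rises and falls, with MSMO1 chosen after its values were seen. Related genes were named where called or, per list, for the 2 smallest unadjusted p, in the unpaired fit. LBR and NR1H3 were chosen after their values were seen. Promoter windows are from RefSeq and run from 250 bases before to 50 after a start.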

Additional observations from a re-analysis of the deposited data

Results flagged for a closer look

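Within each group of 4 libraries, 54 groups of values (27 genes, 2 groups each) were checked for a library far from the others, by the size of its gap relative to the group's range (Dixon's test, at the 95% critical value). Chance flags about 1 group in 20, and 2 were found. HMGCS1 stood at 68.5 RPKM in HIF1A-KD 2, where the other 3 HIF1A-KD libraries lay between 41.4 and 41.5 RPKM. The shCtrl library of the same number, shCtrl 2, was also the highest of its group for HMGCS1, at 76.1 RPKM. ABCG1 stood at 47.8 RPKM in shCtrl 1, where the other 3 shCtrl libraries lay between 15.3 and 20.2 RPKM.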

How the results depend on the processing

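With the library number as a replicate block the count of the 27 genes called was 1 (TM7SF2), and with the split of numbers 1 and 2 from 3 and 4 as a term it was also 1, against 0 in the unpaired fit and in its other planned settings, including each library left out. In the paired fit (1.83% of all tested genes called) the count of 1 became 3 with numbers 3 and 4 crossed (11.2% called). The count became 0 with no filter and 0 without trend and robust moderation. With each pair left out it was 0 to 2 (0 without pair 1 or pair 2, 2 without pair 4). Apart from the crossed fit, the share of all tested genes called in these settings was not computed, so their counts have no background beside them. These paired alternatives were chosen after seeing the data, and the cause of each difference was not tested. The block changed no other call.

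No gene that reversed its direction was called in any setting. ACAT2 (−0.01 as reported) was 0.0039 by limma-voom and 0.044 in libraries 3 and 4 alone, where MVK was −0.26, LSS −0.18, SREBF1 −0.048 and STARD4 0.13. LSS was −0.050 under median-of-ratios scaling. In libraries 1 and 2 alone SREBF2 was 0.026 and INSIG1 0.24. With each library left out, the log2 change took both signs for 15 of the 27: ABCA1 (−0.38 to 0.14), ACAT2 (−0.24 to 0.31), CYP51A1 (−0.13 to 0.080), EBP (−0.16 to 0.014), FDPS (−0.33 to 0.19), HSD17B7 (−0.0049 to 0.72), INSIG1 (−0.68 to 0.21), LSS (−0.29 to 0.21), MVD (−0.0080 to 0.50), MVK (−0.22 to 0.42), SCAP (−0.034 to 0.27), SQLE (−0.051 to 0.24), SREBF1 (−0.13 to 0.40), SREBF2 (−0.16 to 0.071), STARD4 (−0.30 to 0.19). The other 12 kept their direction in every setting run. TM7SF2 ranged from 0.82 to 1.15 and PMVK from 0.62 to 0.91 with each library left out, and ABCG1 from −0.95 to −0.34. ABCA1, at 0.633 to 2.12 RPKM, has the least signal of the 27.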
